A study of Mus musculus with 10 samples.

Results

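The 10 muscle LIM genes described here were taken by symbol from the count table, as *Csrp3* and the genes of related LIM domain proteins of striated muscle. They are 10 of the 57185 genes with values. All 10 passed the filter on low counts (over 10 in 6 or more of the 10 mice) and so were among the 13453 genes tested. RNA of the apical part of the ventricles, labelled as left ventricle, was enriched for polyadenylated transcripts and sequenced as 1 library per mouse, from 5 MLPKO and 5 MLPKO-cRADKO male mice. Both genotypes lacked muscle LIM protein (MLP) as a constitutive knockout, a model of dilated cardiomyopathy, and carried floxed alleles of the gene for RAD, a small GTP-binding protein that restrains the L-type calcium channel. Every mouse received 1 dose of tamoxifen of 100 mg per kg when 10 weeks old, and hearts were taken 1 month later. The labels also give an age of 16 weeks, which is more than these times add up to. Only the MLPKO-cRADKO mice carried MYH6-MerCreMer, a recombinase driven in cardiomyocytes, so that the presence of the recombinase and the loss of RAD cannot be told apart. The strain is not given in the sources used here. The question was how the deletion of RAD in hearts that already lacked MLP changed the RNA of the LIM genes.

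A LIM domain is a double zinc finger that binds other proteins and not DNA. MLP, the product of *Csrp3*, consists of a pair of LIM domains, is found in heart and skeletal muscle, where it binds telethonin and alpha-actinin. The FHL proteins carry LIM domains throughout their length, the PDZ-LIM proteins join an amino-terminal PDZ domain that binds alpha-actinin to LIM domains, and several of these genes are known to rise in overloaded hearts.

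Short sequences upstream of the transcript starts are shown for the 3 genes with a 10-base muscle motif, because these include the genes with the largest log2 fold changes below. None of the 3 reached an edgeR adjusted p under 0.05 in the tests below. *Ldb3*, the LIM gene that did, had none of the motifs searched for. Whether the motifs bear on the values was not tested. The 250 bases upstream of the canonical transcript were searched on both strands of GRCm39 for the CArG box, which serum response factor binds, the MEF2 box, which the MEF2 factors bind, the MCAT element CATTCC, and the GATA motifs AGATAA and AGATAG. Capitals mark the motif in the windows of 30 bases below.
Csrp3, MEF2 box, chr7:48498076-48498105, minus strand: aaaaatgattTTAAATATAAaaccctttgt
Fhl1, CArG box, chrX:55824931-55824960, plus strand: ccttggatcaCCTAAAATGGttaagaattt
Lmcd1, CArG box, chr6:112250494-112250523, plus strand: tgctccttgcCCTTTAAAGGagaagggcgt
The first base of the motif lay at position -194 from the transcript start in *Csrp3*, at -142 in *Fhl1* and at -215 in *Lmcd1*. A CArG box was found in 1.14% of the 13041 promoters of tested coding genes and a MEF2 box in 2.05%. CATTCC was found upstream of *Csrp2* and *Pdlim3* and in 11.7% of all promoters. AGATAA was found upstream of *Csrp1* and in 7.1% of all promoters, and AGATAG in 6.52% of all promoters and in no LIM gene here. The *Fhl1* motif lies inside the gene, upstream of the start of the canonical transcript but downstream of where the annotated gene begins, and the 250 bases searched there touch 14 annotated exons. These matches describe letters in the reference and not binding.

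Depth, markers and the targeted gene bear on all the values below. Total counts ranged from 33457406 to 49965101 per library, and levels are given as CPM, counts per 1e6 counts, after TMM normalization, which corrects for library size and composition. Transcripts of *Rrad*, the gene for RAD, were counted at 223 ± 66.2 CPM in MLPKO against 171 ± 29.9 CPM in MLPKO-cRADKO (SD, n = 5 each), with overlap (log2 fold change -0.38, its standard error, SE, 0.20, edgeR adjusted p = 0.29), and counts per gene cannot show whether the deleted exons were read. The 10 cardiomyocyte markers together held between 86200 and 98400 CPM in MLPKO and between 70400 and 86800 CPM in MLPKO-cRADKO, with a small overlap. Of these 10 markers 8 had lower and 2 higher values, the latter *Tnni3* and *Atp2a2* (log2 fold changes 0.13 and 0.15). *Tnnt2*, the cardiac troponin T gene, was the marker called, and it was lower. *Myh6* was the largest part of the sums, at means of 36500 CPM in MLPKO and 29890 CPM in MLPKO-cRADKO. The 7 endothelial markers held 962 to 1090 CPM in MLPKO against 1170 to 1330 CPM in MLPKO-cRADKO, with *Tek* called higher. The sums of the 5 pericyte markers (722 to 963 against 932 to 1020 CPM), the 7 tested smooth muscle markers (240 to 348 against 308 to 461 CPM), the 7 macrophage markers (114 to 159 against 140 to 241 CPM) and the 8 fibroblast markers (1110 to 1660 against 961 to 1700 CPM) overlapped. *Rgs5*, *Acta2* and *Dpt* among them were called higher. The other fibroblast markers did not follow *Dpt*: of the 8, 5 had lower and 3 higher values, with a median log2 fold change of -0.02. Only *Dpt* of these 8 had an unadjusted p under 0.05 with edgeR. Of the macrophage markers edgeR called 0, with all 7 higher at an unadjusted p under 0.05, and DESeq2 called 2. The part of these shifts in the LIM gene results was not tested. In a bulk sample, fewer cells of a type and less RNA per cell cannot be told apart. The 4 tested of 10 skeletal muscle markers summed to 14.4 to 19.8 CPM in MLPKO and 7.21 to 10.9 CPM in MLPKO-cRADKO, without overlap. *Tnnt1*, the slow skeletal troponin T gene, was called lower among them (edgeR adjusted p = 0.0226), and *Myh4* was at 0 in all 10 mice. *Tnnt1* held most of these sums, at means of 15.4 CPM in MLPKO and 8.19 CPM in MLPKO-cRADKO. *Actn3*, *Mylpf* and *Tnni2* had means of 0.39 to 0.62 CPM in MLPKO and log2 fold changes of -0.03, -0.09 and -0.02. The 3 tested of 5 atrial markers summed to 27.6 CPM in MLPKO-cRADKO mouse 1 and to at most 8.08 CPM in any MLPKO mouse.

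Gene positions are those of GENCODE M39 on GRCm39. The CRP genes encode proteins built from a pair of LIM domains. *Csrp3* (chromosome 7, 48480142 to 48497901, minus strand) encodes MLP, which both genotypes lack by their labels. Its transcript was nevertheless counted at 1585, 3261, 1069, 1009 and 1956 CPM in MLPKO mice 1 to 5 and at 1177, 840, 691, 781 and 712 CPM in MLPKO-cRADKO mice 1 to 5. MLPKO mouse 2 was highest, and MLPKO-cRADKO mouse 1 lay above MLPKO mice 3 and 4, so that the genotypes overlapped. The mean in MLPKO-cRADKO (840 ± 197 CPM, SD, n = 5) was 47.3% of that in MLPKO (1776 ± 917 CPM, SD, n = 5). The log2 fold change was -1.08 (SE 0.29) and did not pass the test across all genes with edgeR (adjusted p = 0.0667), while DESeq2 gave an adjusted p of 0.0362. No library of a mouse with intact *Csrp3* was analysed here, and a count per gene does not show which of its exons the reads came from, so these values are no check of the knockout.

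*Csrp1* (chromosome 1, 135647492 to 135679976, plus strand) encodes CRP1, a relative of MLP best known from smooth muscle. Its level was 39.8, 43.9, 32.1, 31.0 and 43.7 CPM in the MLPKO mice and 40.8, 35.8, 47.9, 37.1 and 40.1 CPM in the MLPKO-cRADKO mice. The ranges lay on top of each other, with a log2 fold change of 0.08 (SE 0.12, edgeR adjusted p = 0.732).

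*Csrp2* (chromosome 10, 110755650 to 110776096, plus strand) encodes CRP2, known from vascular smooth muscle. Values by mouse were 6.87, 8.53, 5.49, 6.99 and 8.01 CPM in MLPKO and 10.5, 11.02, 12.5, 8.17 and 8.82 CPM in MLPKO-cRADKO. MLPKO-cRADKO mouse 4 lay below MLPKO mouse 2, and otherwise the MLPKO-cRADKO mice were higher. The log2 fold change was 0.51 (SE 0.14, edgeR adjusted p = 0.0722), and DESeq2 gave an adjusted p of 0.0165. Among the smooth muscle markers *Acta2* was also higher, at 66.3 ± 21.4 CPM in MLPKO against 156 ± 52.5 CPM in MLPKO-cRADKO (SD, n = 5 each, edgeR adjusted p = 0.0461), while *Myh11* was at 50.9 ± 13.6 CPM and 51.1 ± 11.4 CPM (SD, n = 5 each). *Cnn1*, the calponin gene of smooth muscle, had the opposite sign, at 4.39, 54.4, 8.09, 8.27 and 5.16 CPM in MLPKO and 2.08 to 5.80 CPM in MLPKO-cRADKO (log2 fold change -2.17, SE 0.70, edgeR adjusted p = 0.103). The 7 tested smooth muscle markers had 5 higher and 2 lower values. *Tagln*, also on that list, held 2 to 13 counts per mouse and did not pass the filter. The part of smooth muscle in the *Csrp2* values was not tested.

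Within a library, the ratio of a pair of genes does not depend on library size. On the log2 scale the ratio of *Csrp1* to *Csrp3* was -5.42 ± 0.48 in MLPKO against -4.36 ± 0.38 in MLPKO-cRADKO (SD, n = 5 each). The genotypes did not overlap, and the difference was 1.06 (two-sided exact permutation test, p = 0.00794, the smallest that splits of the 10 mice allow, and 0.0119 with Benjamini-Hochberg adjustment over the 3 ratios tested). The ratio of *Csrp2* to *Csrp3* was -7.83 ± 0.51 in MLPKO against -6.35 ± 0.38 in MLPKO-cRADKO (SD, n = 5 each), again without overlap, with a difference of 1.48 (exact permutation p = 0.00794, adjusted 0.0119). The log2 fold changes were 0.08 for *Csrp1*, 0.51 for *Csrp2* and -1.08 for *Csrp3*, none of them called by edgeR. The first difference thus restates that of *Csrp3*, whose own levels overlapped, and the second does so in large part. Their p-values are no result apart from *Csrp3*. The 3 ratios tested were chosen with earlier results of the *Csrp3* counts known. Per kilobase of the canonical transcript, counts of *Csrp3* made up 98.5% ± 0.44 (SD, n = 5) of the CRP sum in MLPKO. The share was 96.8% ± 0.82 (SD, n = 5) in MLPKO-cRADKO. Both divide by the full length of the intact transcript, and which exons of the knocked-out gene were read is not known. They are therefore no measure of intact *Csrp3* transcript.

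**Figure D1:**
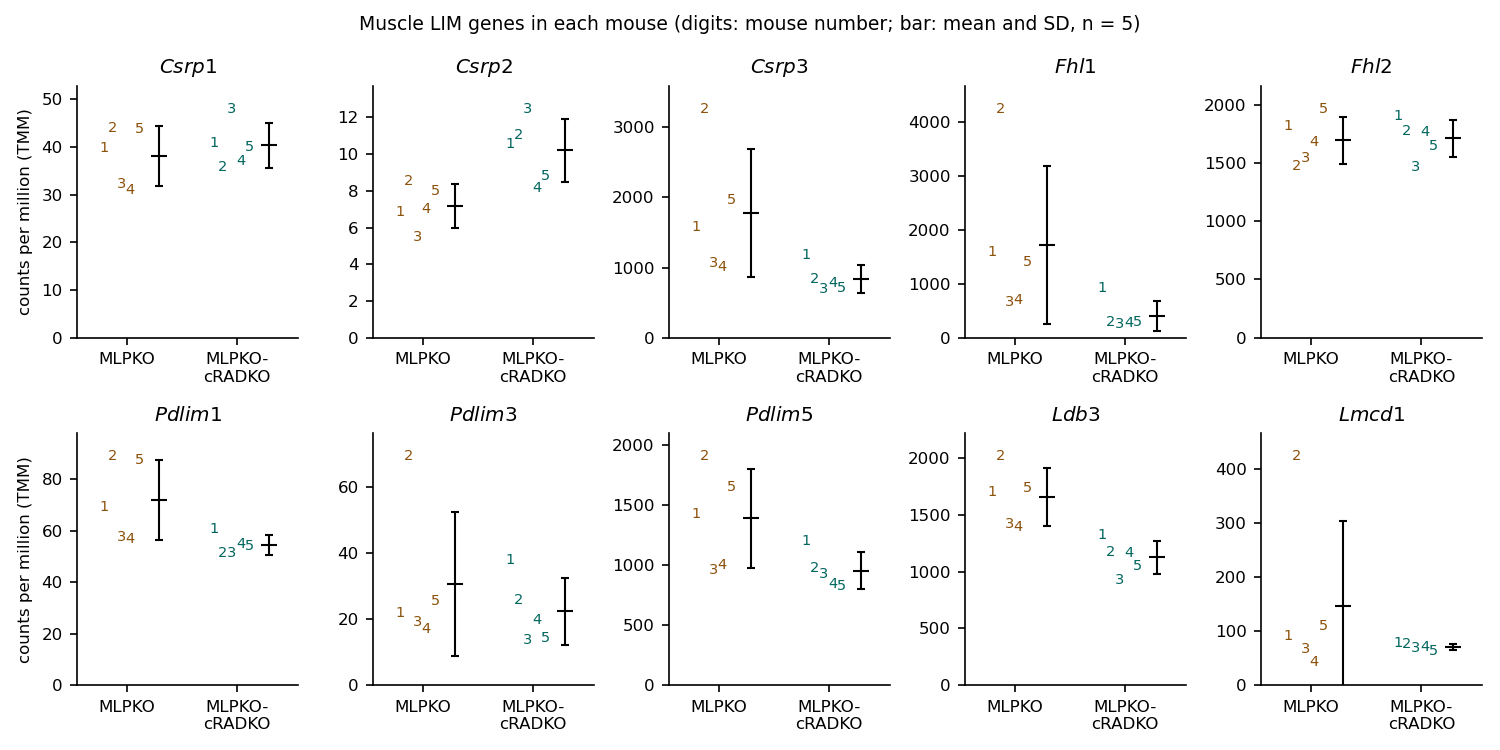
Level of each LIM gene (vertical axis, TMM-normalized CPM from 0) in each mouse, drawn as its mouse number, for MLPKO (brown) and MLPKO-cRADKO (green). Black bars give the mean and SD of 5 mice, cut off at 0 for *Lmcd1*. *Ldb3* is the gene whose genotypes do not overlap, and MLPKO mouse 2 stands far above the others in *Fhl1* (4248 CPM) and *Lmcd1* (424 CPM).

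The FHL genes differed from each other. *Fhl1* (chromosome X, 55777147 to 55838706, plus strand) encodes a protein that binds titin at the I-band and takes part in hypertrophic signalling. It was counted at 1589, 4248, 669.8, 700.2 and 1398 CPM in the MLPKO mice and at 915, 291, 254, 279.9 and 287 CPM in the MLPKO-cRADKO mice. MLPKO-cRADKO mouse 1 lay above MLPKO mice 3 and 4, and the other 4 MLPKO-cRADKO mice lay below every MLPKO mouse. The mean in MLPKO-cRADKO (405 ± 285 CPM, SD, n = 5) was 23.5% of that in MLPKO (1721 ± 1471 CPM, SD, n = 5). The log2 fold change of -2.09 (SE 0.55) was the largest in size of the 10 genes but did not pass the edgeR test (adjusted p = 0.0609), and DESeq2 gave an adjusted p of 0.039. It moved to -1.43 without MLPKO mouse 2 (edgeR adjusted p = 0.0826) and to -2.63 without MLPKO-cRADKO mouse 1 (edgeR adjusted p = 0.0372). Of the 10 fits without 1 mouse, 2 called *Fhl1*, and the adjusted p reached 0.141.

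*Fhl2* (chromosome 1, 43162199 to 43236290, minus strand) encodes a heart-enriched FHL protein that binds titin and holds back calcineurin. Its level was 1820, 1472, 1539, 1682 and 1963 CPM in MLPKO and 1899, 1771, 1468, 1765 and 1643 CPM in MLPKO-cRADKO. The genotypes covered the same range, with a log2 fold change of 0.01 (SE 0.09, edgeR adjusted p = 0.959), a value whose sign turned when MLPKO mouse 2, MLPKO mouse 3 or MLPKO-cRADKO mouse 1 was left out. Of the 1818 bases of its canonical transcript, 17.4% lie in exons of *Gm30307* on the other strand, and whether the counting used strand is not given in the sources used here. *Gm30307* itself held 944 counts over all 10 mice, against at least 46446 counts of *Fhl2* in each mouse.

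The count of *Fhl1* divided by that of *Fhl2* in the same library was 0.873, 2.89, 0.435, 0.416 and 0.712 in MLPKO mice 1 to 5. It was 0.482, 0.164, 0.173, 0.159 and 0.175 in MLPKO-cRADKO mice 1 to 5. On the log2 scale the means were -0.32 ± 1.13 (SD, n = 5) and -2.27 ± 0.68 (SD, n = 5), a difference of -1.95 (two-sided exact permutation test, p = 0.0238, and 0.0238 after adjustment over the 3 ratios). MLPKO-cRADKO mouse 1 lay above MLPKO mice 3 and 4 and so the genotypes overlapped. As the log2 fold change of *Fhl2* was 0.01, the difference in this ratio mainly restates that of *Fhl1* (-2.09). Per kilobase of the canonical transcript, *Fhl1* made up 24.8% to 69.6% of the sum of both genes in MLPKO, and 11.2% to 27.7% in MLPKO-cRADKO. These shares rest on the length used. Per length of all annotated exons, *Fhl1* ranked 2 and *Fhl2* 5 of the LIM genes in MLPKO, and 4 and 3 in MLPKO-cRADKO.

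**Figure D2:**
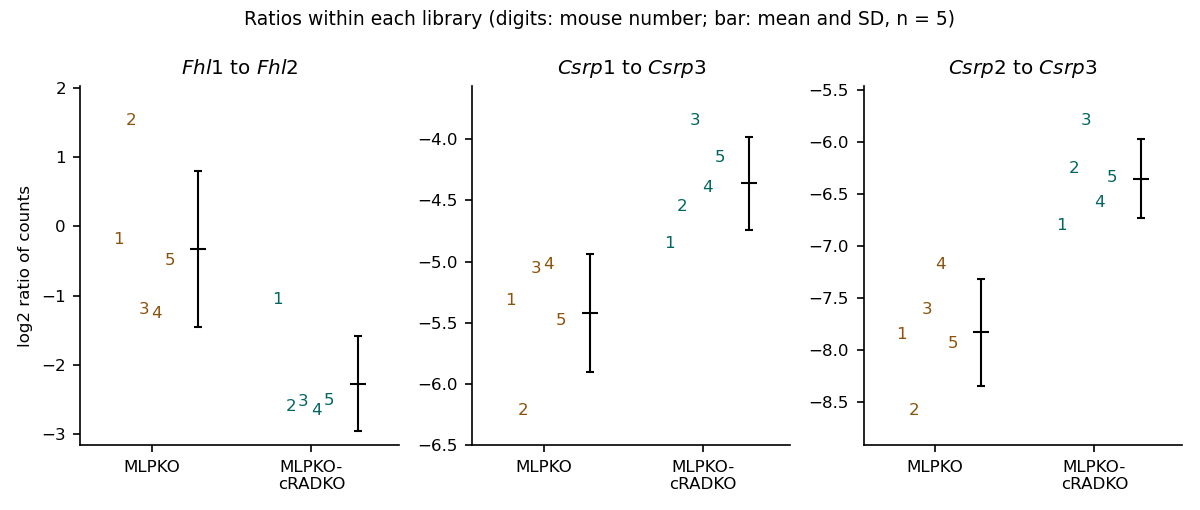
Log2 ratio of the counts of a pair of LIM genes within each library (vertical axis), drawn as the mouse number for MLPKO (brown) and MLPKO-cRADKO (green), with the mean and SD of 5 mice in black. The ratios of *Csrp1* and *Csrp2* to *Csrp3* do not overlap between the genotypes, and for *Fhl1* to *Fhl2* MLPKO-cRADKO mouse 1 reaches the lower MLPKO mice.

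*Ldb3* (chromosome 14, 34248056 to 34312351, minus strand) encodes ZASP, also called Cypher, a PDZ-LIM protein that holds alpha-actinin at the Z-disc and is mutated in some cardiomyopathies. Values by mouse were 1701, 2017, 1421, 1395 and 1739 CPM in MLPKO and 1318, 1174, 927, 1160 and 1053 CPM in MLPKO-cRADKO. Every MLPKO mouse lay above every MLPKO-cRADKO mouse. The mean was 1655 ± 256 CPM in MLPKO against 1126 ± 146 CPM in MLPKO-cRADKO (SD, n = 5 each), 68.1% of the former, and *Ldb3* was lower in MLPKO-cRADKO with a log2 fold change of -0.56 (SE 0.12, edgeR adjusted p = 0.0334, DESeq2 adjusted p = 0.00035). In the 10 fits without 1 mouse, the log2 fold changes ran from -0.62 to -0.47 and the edgeR adjusted p from 0.0206 to 0.0936, and the call was lost without MLPKO mouse 1 or 5 or MLPKO-cRADKO mouse 2, 3, 4 or 5.

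*Pdlim5* (chromosome 3, 141945345 to 142101830, minus strand) encodes ENH, a PDZ-LIM protein that brings protein kinase C to the Z-disc. It was counted at 1423, 1909, 962, 1002 and 1652 CPM in MLPKO and at 1204, 972, 924, 844 and 829.4 CPM in MLPKO-cRADKO. MLPKO mice 3 and 4 fell among the MLPKO-cRADKO mice. The log2 fold change was -0.54 (SE 0.19, edgeR adjusted p = 0.12, DESeq2 adjusted p = 0.034).

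*Pdlim1* (chromosome 19, 40209617 to 40260533, minus strand) encodes CLP36, which links alpha-actinin to stress fibres. Its level was 69.2, 88.9, 57.3, 56.9 and 87.4 CPM in MLPKO and 60.5, 51.3, 51.4, 54.8 and 54.0 CPM in MLPKO-cRADKO. Only MLPKO-cRADKO mouse 1 reached into the MLPKO range, and the log2 fold change was -0.40 (SE 0.13, edgeR adjusted p = 0.0996, DESeq2 adjusted p = 0.034).

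*Pdlim3* (chromosome 8, 46338398 to 46372689, plus strand) encodes ALP, the actinin-associated LIM protein. Values by mouse were 21.8, 69.3, 19.1, 17.1 and 25.4 CPM in MLPKO and 38.0, 25.8, 13.6, 19.7 and 14.3 CPM in MLPKO-cRADKO. Apart from MLPKO mouse 2, the MLPKO mice lay within the wider range of MLPKO-cRADKO, where mice 1 and 2 were above them and mice 3 and 5 below. The log2 fold change of -0.45 (SE 0.40, edgeR adjusted p = 0.56) became 0.09 without that mouse.

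Within the PDZ-LIM genes, per kilobase of the canonical transcript, *Ldb3* held 49.6% ± 3.91 (SD, n = 5) of the transcripts in MLPKO and 48.4% ± 2.83 (SD, n = 5) in MLPKO-cRADKO. *Pdlim5* held 43.0% ± 3.32 (SD, n = 5) and 43.4% ± 2.86 (SD, n = 5). These shares differed by less than the spread between mice, whereas the levels of both genes had lower means in MLPKO-cRADKO.

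*Lmcd1* (chromosome 6, 112250719 to 112307388, plus strand) encodes dyxin, a LIM protein that binds GATA factors and takes part in calcineurin signalling in the heart. It was counted at 91.0, 424, 66.9, 43.3 and 109.9 CPM in MLPKO and at 77.2, 76.0, 69.2, 70.1 and 62.9 CPM in MLPKO-cRADKO. MLPKO mouse 2 had 5.46 times the mean of the other 4 MLPKO mice, which was 77.8 ± 28.9 CPM (SD, n = 4), and MLPKO mouse 4 was the lowest of all 10 mice. The log2 fold change of -1.05 (SE 0.50, edgeR adjusted p = 0.254, DESeq2 adjusted p = 0.263) became -0.13 without MLPKO mouse 2.

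**Figure D3:**
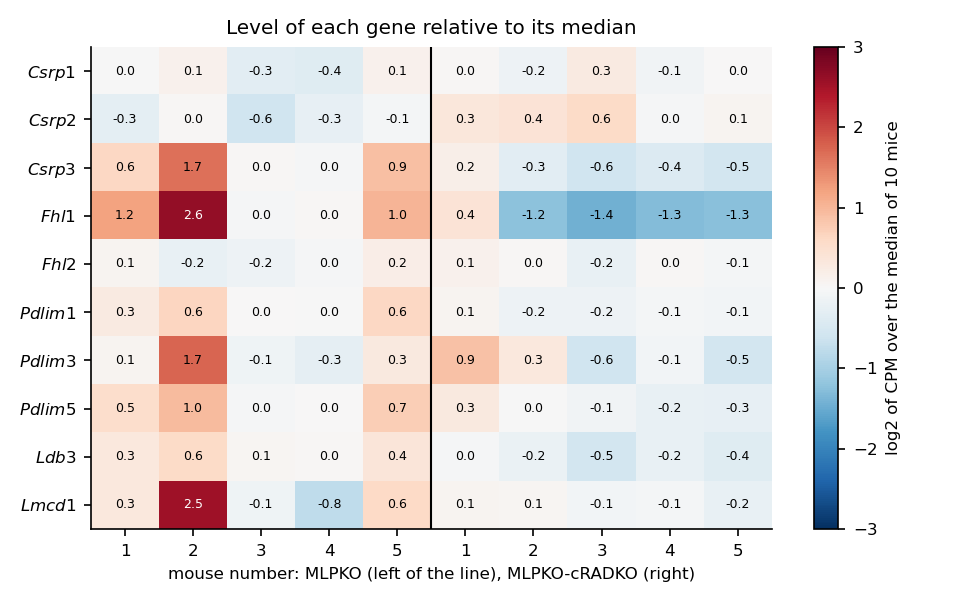
Log2 of the level of each LIM gene in each mouse over the median of the 10 mice (colour and printed value, red above and blue below), with MLPKO mice left of the line and MLPKO-cRADKO mice right of it. MLPKO mouse 2 is the highest of its genotype in 9 of 10 genes, and MLPKO-cRADKO mouse 1 in 8 of 10.

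Single mice stood out in several LIM genes. MLPKO mouse 2 was the highest of its genotype in 9 of the 10 genes and the lowest in *Fhl2*, and MLPKO mouse 4 was the lowest in 6. MLPKO-cRADKO mouse 1 was the highest of its genotype in 8, and MLPKO-cRADKO mouse 3 the highest in 2 and the lowest in 5. The level in MLPKO mouse 2 over the mean of the other 4 MLPKO mice was 3.9 for *Fhl1*, 3.32 for *Pdlim3*, 2.32 for *Csrp3* and 1.29 for *Ldb3*. The level in MLPKO-cRADKO mouse 1 over the mean of the other 4 was 3.29 for *Fhl1*, 2.07 for *Pdlim3* and 1.56 for *Csrp3*. Without these mice the *Fhl1* mean was 1089 ± 474 CPM (SD, n = 4) in MLPKO and 278 ± 16.5 CPM (SD, n = 4) in MLPKO-cRADKO, and that of *Csrp3* was 1405 ± 449 CPM and 756 ± 67.9 CPM (SD, n = 4 each). The cardiomyocyte sum was 87500 CPM in MLPKO mouse 2 and 86200 to 98400 CPM in the other 4 MLPKO mice. The fibroblast sum of MLPKO mouse 2 lay above the other 4 (1660 against 1110 to 1260 CPM), and its pericyte sum below (722 against 731 to 963 CPM). Its smooth muscle sum was also higher (348 against 240 to 299 CPM), with 54.4 CPM of *Cnn1* against 4.39 to 8.27 CPM. *Acta2*, *Myh11*, *Mylk* and *Lmod1* were also the highest of their genotype there, and *Smtn* the lowest (66.4 CPM). Its skeletal muscle sum (19.8 against 14.4 to 18.2 CPM) was mostly *Tnnt1* (18.8 against 12.1 to 17.1 CPM). MLPKO-cRADKO mouse 1 had the highest fibroblast (1700 CPM) and atrial (27.6 CPM) sums of its genotype. The part of these sums in the LIM gene values was not tested.

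Over the 10 mice the Pearson correlation of log2 CPM with *Csrp3* was 0.975 for *Fhl1*, 0.969 for *Pdlim5*, 0.955 for *Pdlim1* and 0.95 for *Ldb3*. It was 0.838 for *Lmcd1*, 0.809 for *Pdlim3*, 0.264 for *Csrp1*, 0.05 for *Fhl2* and -0.285 for *Csrp2*. The points share their libraries and the difference between the genotypes, so these are descriptions of likeness. Without the 2 mice farthest from the *Csrp3* median, MLPKO mice 2 and 5, the values were 0.977 for *Fhl1*, 0.919 for *Pdlim5*, 0.933 for *Pdlim1* and 0.945 for *Ldb3* (n = 8). The others moved more, to 0.336 for *Lmcd1*, 0.542 for *Pdlim3*, 0.525 for *Fhl2*, -0.255 for *Csrp1* and -0.515 for *Csrp2* (n = 8). With each genotype centred on its own mean, r was 0.908 to 0.953 for *Fhl1*, *Pdlim5*, *Pdlim1*, *Ldb3*, *Lmcd1* and *Pdlim3*, and 0.632 for *Csrp1*, 0.546 for *Csrp2* and 0.124 for *Fhl2* (10 mice). Of all other genes tested, *Cab39* (r = 0.991), *Otulin* (0.99), *Atp13a3* (0.989), *E2f3* (0.989) and *Cct8* (0.989) were most like *Csrp3*, and without the same mice their r lay between 0.958 and 0.974.

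Levels can be compared between genes only per length. In CPM per kilobase of the canonical transcript, MLPKO held *Csrp3* at 1770 ± 914 (SD, n = 5), *Fhl2* at 932 ± 111, *Fhl1* at 752 ± 643, *Ldb3* at 290.0 ± 44.9, *Pdlim5* at 258 ± 76.2 and *Lmcd1* at 84.9 ± 90.7 (SD, n = 5 each). *Pdlim1* (28.0 ± 6.06), *Csrp1* (20.6 ± 3.36), *Pdlim3* (16.9 ± 12.1) and *Csrp2* (3.59 ± 0.59) followed (SD, n = 5 each). Each gene lay above the next in all 5 MLPKO mice, apart from *Fhl2* over *Fhl1* and *Csrp1* over *Pdlim3* (4 of 5 mice each) and *Ldb3* over *Pdlim5* (3 of 5). In MLPKO-cRADKO, *Fhl2* (940 ± 89.4) came before *Csrp3* (838 ± 197) in 4 of 5 mice, and *Fhl1* (177 ± 125) came after *Ldb3* (197 ± 25.6) and *Pdlim5* (177 ± 28.0) (SD, n = 5 each). With the length of all annotated exons in place of the canonical transcript, *Fhl2* ranked 5 in MLPKO and 3 in MLPKO-cRADKO. *Fhl1* then came before *Pdlim5* in MLPKO-cRADKO, and *Csrp1* before *Pdlim1* in MLPKO, so that these places rest on the length used. The place of *Csrp3* rests on the length of its intact transcript, and which of its exons were read is not known.

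Across all genes, the edgeR test called 2.74% of the 13453 genes, and 1.8% were called lower in MLPKO-cRADKO. Of the 10 LIM genes 1 was called, *Ldb3*, which was lower. DESeq2, the tool of the study's methods, called 9.65% of all genes, with 5.84% lower, and of the LIM genes 6, with *Csrp3*, *Fhl1*, *Pdlim1*, *Pdlim5* and *Ldb3* lower and *Csrp2* higher. At an unadjusted p under 0.05, edgeR had 21.6% of all genes and 6 of the LIM genes (5 lower and 1 higher). The genotypes did not overlap in 6.61% of all genes and in 1 of the 10 LIM genes. The median log2 fold change of the LIM genes was -0.50, against 0.01 over all genes tested, and it was -0.22 without MLPKO mouse 2. With upper quartile scaling, edgeR called 205 genes lower and 175 higher, where TMM gave 242 lower and 127 higher.

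**Figure D4:**
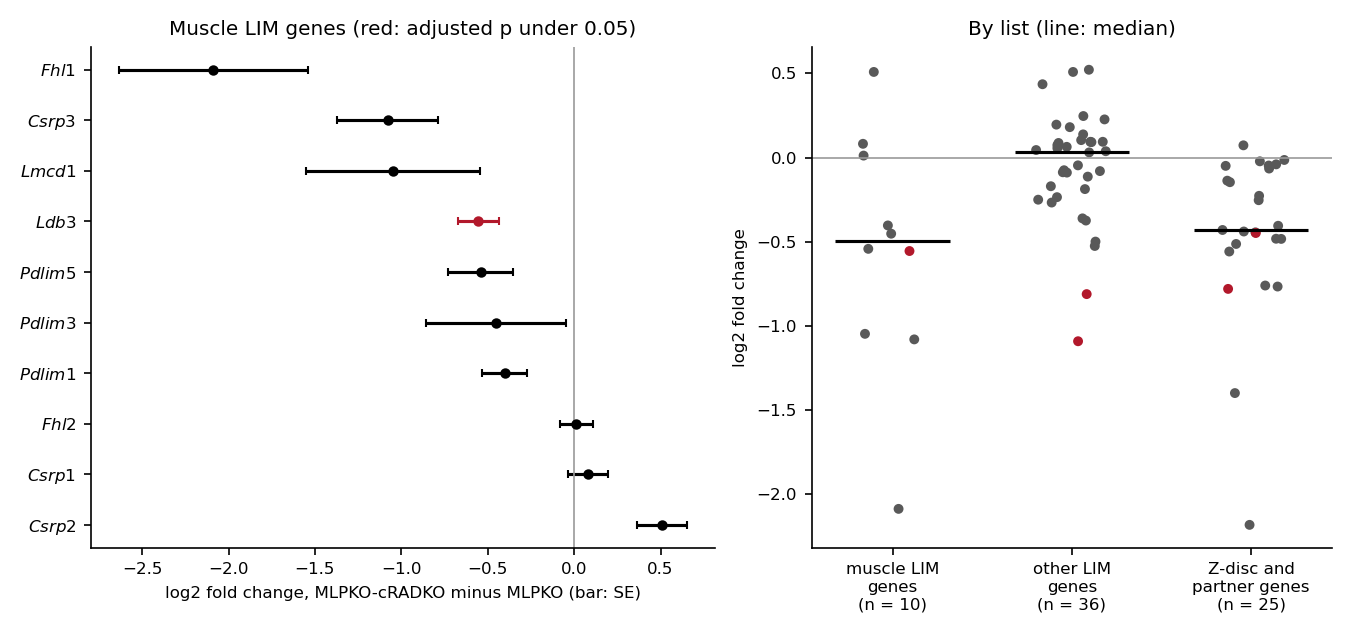
Left, log2 fold change of each LIM gene, MLPKO-cRADKO minus MLPKO (horizontal axis), with its standard error. Right, the log2 fold changes (vertical axis) of the 10 LIM genes, 36 other LIM genes and 25 Z-disc and MLP partner genes, each point a gene and each line a median (-0.50, 0.03 and -0.43), with genes at an edgeR adjusted p under 0.05 in red.

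**Figure D5:**
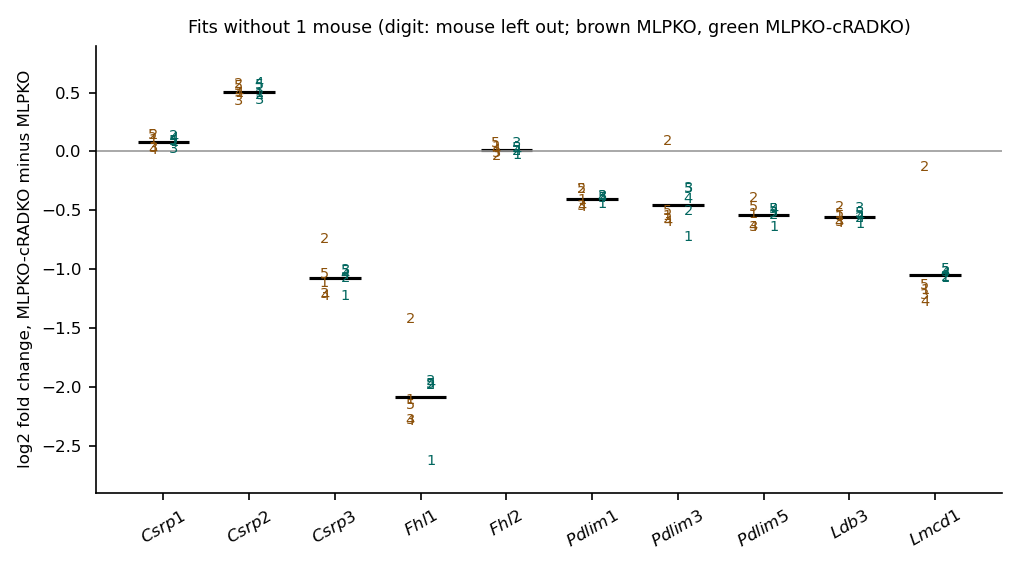
Log2 fold change of each LIM gene, MLPKO-cRADKO minus MLPKO (vertical axis), in the 10 fits that left out 1 mouse, drawn as the number of that mouse (brown MLPKO, green MLPKO-cRADKO), with the value from all 10 mice as a line. Leaving out MLPKO mouse 2 moved *Lmcd1* from -1.05 to -0.13 and *Pdlim3* from -0.45 to 0.09, while *Ldb3* stayed between -0.62 and -0.47.

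Other genes of LIM domain proteins, from focal adhesions, the cytoskeleton and the Z-disc, were taken as a list of 38, of which 36 were tested. Of these 17 had lower and 19 higher values in MLPKO-cRADKO, with a median log2 fold change of 0.03. The edgeR test called 2 lower and 0 higher, with 9 genes at an unadjusted p under 0.05 (7 lower and 2 higher). DESeq2 called 6 lower and 1 higher, and the genotypes did not overlap in 4 of the 36. Over all genes tested, edgeR called 2.74%, 21.6% had an unadjusted p under 0.05, DESeq2 called 9.65%, and 6.61% did not overlap. *Fhl3*, a further FHL gene known from skeletal muscle, was counted at 16.4, 15.2, 9.73, 9.55 and 18.6 CPM in MLPKO and at 7.36, 5.90, 6.69, 5.30 and 7.37 CPM in MLPKO-cRADKO. It was lower in MLPKO-cRADKO without overlap, with a log2 fold change of -1.09 (SE 0.19, edgeR adjusted p = 0.0203). *Nrap*, which encodes a LIM and nebulin repeat protein of assembling myofibrils and intercalated discs, was at 2132 ± 650 CPM in MLPKO against 1215 ± 148 CPM in MLPKO-cRADKO (SD, n = 5 each), without overlap (log2 fold change -0.81, SE 0.18, edgeR adjusted p = 0.0377). Of the 10 fits without 1 mouse, *Fhl3* was not called in 4 (without MLPKO mouse 1 or 5 or MLPKO-cRADKO mouse 4 or 5, adjusted p up to 0.0572). *Nrap* was not called in 6 (without those mice or MLPKO-cRADKO mouse 2 or 3, adjusted p up to 0.0948).

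Of 27 genes of the Z-disc and of proteins that bind MLP or its relatives, 25 were tested, and 24 had a lower value in MLPKO-cRADKO. *Myoz3* (0 to 2 counts per mouse) and *Ilk* (2 to 8) did not pass the filter. Whether so few counts reflect little RNA or the way reads were counted was not tested. The median log2 fold change of the 25 genes was -0.43, and -0.27 without MLPKO mouse 2. The edgeR test called 2 lower and 0 higher, 16 had an unadjusted p under 0.05, all lower, and DESeq2 called 10, all lower. Over all genes tested these shares were 2.74%, 21.6% and 9.65%. *Des*, the gene for desmin, which ties Z-discs together, was counted at 3245, 5110, 3054, 2747 and 3509 CPM in MLPKO and at 2382, 1956, 2030, 2013 and 1903 CPM in MLPKO-cRADKO. It was lower without overlap, with a log2 fold change of -0.78 (SE 0.15, edgeR adjusted p = 0.0247). *Vcl*, the gene for vinculin of the costamere, was at 114 ± 11.3 CPM in MLPKO against 83.6 ± 6.97 CPM in MLPKO-cRADKO (SD, n = 5 each), without overlap (log2 fold change -0.45, SE 0.08, edgeR adjusted p = 0.0216). Of the 10 fits without 1 mouse, *Des* was not called in 6 (without MLPKO mouse 1 or 5 or MLPKO-cRADKO mouse 2, 3, 4 or 5, adjusted p up to 0.0719) and *Vcl* in 4 (without MLPKO mouse 5 or MLPKO-cRADKO mouse 3, 4 or 5, adjusted p up to 0.0627). *Tcap*, *Actn2*, *Myoz1* and *Ppp3ca* did not overlap either and were not called by edgeR. In all, 6 of the 25 genes did not overlap, against 6.61% of all genes tested. *Myoz1* was near the floor, with 0 to 19 counts per mouse (0.38 to 0.60 CPM in MLPKO and 0 to 0.27 CPM in MLPKO-cRADKO). *Tcap*, whose product telethonin binds MLP, had a log2 fold change of -0.41 (SE 0.14, edgeR adjusted p = 0.132), and *Actn2*, the sarcomeric alpha-actinin, -0.43 (SE 0.11, edgeR adjusted p = 0.0544).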

How the data were processed

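RNA-seq of 10 mouse ventricles was analysed from 1 table of raw counts per gene deposited by the authors, who, per the labels and submitters' processing notes, used FastQC, STAR and featureCounts on GRCm39. Settings for read pairs, strand and multiply mapped reads are not given in the sources used here. Of counts from 1 to 20, 73.7% to 80.3% were even, so both reads of a pair may have been counted in part, and a count may then stand for fewer fragments. Of 60676 genes, 3491 without values were left out, and 56629 of the other 57185 were named and placed by GENCODE M39. Kept were genes that exceeded 10 counts in 6 or more mice, without Gm and Rik genes, by the rule in the study's methods, which left 13453. The study's methods give a smaller number of genes for its own gene set analysis, so the tested sets are not the same, and the reason is not known. The main comparison used edgeR 4.0.16 (quasi-likelihood F test, R 4.3.3, TMM, Benjamini-Hochberg adjustment over all genes tested, threshold 0.05). DESeq2 1.42.0, limma-voom (limma 3.58.1), other scalings and filters, a block on the mouse number and leaving out each mouse were alternatives. Tested on simulated counts of the 13453 genes, 200 of them changed by a log2 fold change of 1, edgeR recovered 143 with 9 false calls, and DESeq2 161 with 30. The simulated counts were drawn independently for each gene and mouse, so no mouse stood out across genes as in the real data. They show that the fits ran as intended and not how many calls in the real data are false. Ratios were compared with two-sided exact permutation tests (scipy 1.17.1). Named genes were the 10 LIM genes, those of the lists of other LIM genes and of Z-disc and partner genes at an edgeR adjusted p under 0.05, the 5 genes most like *Csrp3*, and *Rrad*. *Tcap*, *Actn2*, *Myoz1*, *Ppp3ca*, *Myh11* and *Gm30307* and the cell type markers named were chosen after their values were seen. The members and lists were chosen with earlier results of these data known.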

Additional observations from a re-analysis of the deposited data

Results flagged for a closer look

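In 5 of 26 sets of 5 values, each a LIM gene or ratio in 1 genotype, a single mouse lay so far from the others that its gap to the nearest was over 0.71 of the whole range. For independent, normally distributed values about 1 in 20 sets would be picked out in this way. CPM values need not be normal, and these sets share mice and genes, so that rate need not hold here. *Fhl1* was at 4248 CPM in MLPKO mouse 2, with a gap of 0.743 of the range, and at 914.8 CPM in MLPKO-cRADKO mouse 1 (0.945). *Pdlim3* was at 69.27 CPM (0.84) and *Lmcd1* at 424.3 CPM (0.825) in MLPKO mouse 2. The log2 ratio of *Fhl1* to *Fhl2* was -1.054 in MLPKO-cRADKO mouse 1 (0.914).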

How the results depend on the processing

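Of 180 alternative values of the log2 fold changes of the 10 LIM genes, 161 kept their sign and their side of the threshold, 9 passed the threshold, 6 lost it and 4 changed sign. The 4 were *Fhl2* without MLPKO mouse 2 (-0.035), without MLPKO mouse 3 (-0.015) and without MLPKO-cRADKO mouse 1 (-0.029), and *Pdlim3* without MLPKO mouse 2 (0.092); without 1 mouse *Fhl2* ranged from -0.035 to 0.071 and *Pdlim3* from -0.728 to 0.092. The 6 were *Ldb3*, each with 1 mouse left out. DESeq2 called 1298 genes where edgeR called 369, 6 where edgeR called 1 of the LIM genes, 7 against 2 of the other LIM genes, and 10 against 2 of the Z-disc and partner genes; the cause was not tested. With 1 mouse left out, edgeR called 47 (without MLPKO mouse 5) to 826 (without MLPKO mouse 4) genes, 0 to 4 of the LIM genes, 0 to 5 of the other LIM genes and 0 to 10 of the Z-disc and partner genes. The 4 LIM genes called without MLPKO mouse 4 were *Ldb3*, *Csrp3*, *Fhl1* and *Pdlim1*. The difference in log2 ratio then lay between -2.26 and -1.49 for *Fhl1* to *Fhl2*, 0.86 and 1.18 for *Csrp1* to *Csrp3*, and 1.29 and 1.64 for *Csrp2* to *Csrp3*.

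Mice of both genotypes carry the numbers 1 to 5, which belong to different animals, and the deviations of same-numbered mice correlated at -0.044 to 0.152. How the numbers were given is not stated in the sources used here, so whether they pair the mice in any way is not known. With the replicate block, edgeR called 281 genes, and 1, 2 and 2 of the lists. The ratio differences of -1.95, 1.059 and 1.476 are the same with the replicate block, with an exact permutation p of 0.0625, the smallest that 5 pairs can give. Each LIM gene held at least 262 counts in every mouse, and the differences rest on 5 mice per genotype.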
